A study of Mus musculus with 12 samples.

Results

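A total of 533 H2A.Z peaks were present in a list from mice with a cocaine history but overlapped no peak of mice without one. They comprised 325 of the 6238 peaks of the cocaine-saline (CS) list on chromosomes 1 to 19, or 5.21%, and 208 of the 4670 peaks of the cocaine-cocaine (CC) list, or 4.45%. A peak was kept when it shared not even 1 bp with any peak of the saline-cocaine (SC, 22584 peaks) or saline-saline (SS, 24190 peaks) list, so the members were chosen by the positions of peaks in all 4 lists, and their absence from SC and SS is not a finding. The 4 lists together hold 57682 peaks on these chromosomes. Where CS and CC peaks outside SS and SC overlapped each other they were joined, which gave 447 distinct loci. Of these, 84 held peaks of both lists, 241 held CS peaks alone and 122 held CC peaks alone.

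The samples were nucleus accumbens of mice, in which chromatin bound by an H2A.Z antibody was sequenced. CS mice received cocaine and then saline and the labels call this withdrawal. CC mice received cocaine and then cocaine again (challenge), SC mice saline and then cocaine (acute), and SS mice saline at both points, with 3 samples in each condition. The labels used here give no strain, sex, age, dose or interval, and every condition is represented by 1 list that carries no value per sample. Differences between lists therefore have no replicate error, and the 95% exact binomial (Clopper-Pearson) intervals below cover the counting of peaks only. The CS and CC lists are shorter than the others and reach higher q-values: the highest listed was 0.051 in CS and 0.0625 in CC, against 0.000572 in SC and 0.000544 in SS. Median widths over all peaks were 109 bp in CS and 107 bp in CC, against 730 bp in SC and 737 bp in SS, and sequencing depth was not analysed here.

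H2A.Z replaces the ordinary histone H2A in nucleosomes flanking the start sites of genes, and also at enhancers and in repeated heterochromatin. It is deposited and removed by remodelling complexes of the SWR1 and INO80 type. In neurons its exchange has been studied in relation to memory and to gene activity induced by stimulation.

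Where a peak reached 60 bp or more into the promoter window of a RefSeq gene, 250 bp before its start to 50 bp after it, the sequence could be read together with the peak. There were 10 such windows for CS and 5 for CC, and the 3 of each list farthest from any SS or SC peak are shown to show where in a promoter such peaks lie. The CS peaks shown lay 157993 bp (Itgb6), 6660 bp (6720432D03Rik) and 3099 bp (Selenov) from the nearest SS or SC peak. The CC peaks lay closer, at 1693 bp (Grwd1), 90 bp (Plekha1) and 54 bp (Gmfg). Each window has 300 bases. The sequences are from RefSeq on GRCm38.p6, the assembly behind the mm10 build of the lists, and run 5′ to 3′ on the strand of the gene, with the bases under the peak in capitals. Itgb6, an integrin beta subunit, carries a CS peak at chr2:60722779-60722854 (minus strand, window chr2:60722554-60722853). The next is 6720432D03Rik, whose CS peak at chr9:41868195-41868322 was assigned by the authors to AC160966.2 (minus strand, window chr9:41867980-41868279). Selenov, a selenoprotein gene, carries a CS peak at chr7:28291168-28291255 (minus strand, window chr7:28291137-28291436). Grwd1, a WD-repeat protein of ribosome assembly, holds the CC peak at chr7:45830821-45830977 that the authors assigned to Gm45441 (minus strand, window chr7:45830740-45831039). Plekha1, which encodes a phosphoinositide-binding adaptor, carries a CC peak at chr7:130865508-130865586 (plus strand, window chr7:130865474-130865773). Gmfg, a regulator of actin branching, carries a CC peak at chr7:28437376-28437443 (plus strand, window chr7:28437219-28437518).
Itgb6: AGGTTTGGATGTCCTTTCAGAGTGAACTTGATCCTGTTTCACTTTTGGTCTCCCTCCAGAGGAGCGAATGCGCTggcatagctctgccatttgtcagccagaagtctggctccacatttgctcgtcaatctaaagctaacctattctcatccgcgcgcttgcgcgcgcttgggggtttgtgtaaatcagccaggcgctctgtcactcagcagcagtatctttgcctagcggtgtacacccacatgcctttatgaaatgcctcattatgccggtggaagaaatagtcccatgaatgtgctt
6720432D03Rik: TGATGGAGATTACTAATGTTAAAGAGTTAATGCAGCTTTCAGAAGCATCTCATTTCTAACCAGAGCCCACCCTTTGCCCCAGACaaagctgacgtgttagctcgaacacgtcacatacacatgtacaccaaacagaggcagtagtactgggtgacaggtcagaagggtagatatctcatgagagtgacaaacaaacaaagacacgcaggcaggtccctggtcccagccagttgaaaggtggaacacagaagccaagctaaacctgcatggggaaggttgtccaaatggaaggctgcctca
Selenov: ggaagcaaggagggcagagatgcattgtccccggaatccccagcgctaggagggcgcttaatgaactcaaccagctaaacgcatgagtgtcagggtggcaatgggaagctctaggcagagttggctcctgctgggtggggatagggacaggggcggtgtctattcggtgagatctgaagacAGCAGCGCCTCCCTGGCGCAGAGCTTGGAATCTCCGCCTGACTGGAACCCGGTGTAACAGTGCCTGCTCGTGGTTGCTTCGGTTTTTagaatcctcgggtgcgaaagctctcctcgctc
Grwd1: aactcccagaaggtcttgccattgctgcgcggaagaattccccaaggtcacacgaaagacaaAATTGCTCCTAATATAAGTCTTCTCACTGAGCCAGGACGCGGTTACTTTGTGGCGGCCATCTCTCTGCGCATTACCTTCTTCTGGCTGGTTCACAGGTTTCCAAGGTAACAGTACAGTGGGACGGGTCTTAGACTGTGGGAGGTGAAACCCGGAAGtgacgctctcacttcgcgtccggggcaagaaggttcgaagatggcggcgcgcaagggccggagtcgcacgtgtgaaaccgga
Plekha1: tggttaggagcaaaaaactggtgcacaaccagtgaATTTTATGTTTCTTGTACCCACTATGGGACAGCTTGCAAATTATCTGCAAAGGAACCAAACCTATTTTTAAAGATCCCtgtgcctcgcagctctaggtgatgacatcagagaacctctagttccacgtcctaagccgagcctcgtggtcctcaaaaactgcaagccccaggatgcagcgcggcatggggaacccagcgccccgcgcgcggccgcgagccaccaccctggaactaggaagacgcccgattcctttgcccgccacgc
Gmfg: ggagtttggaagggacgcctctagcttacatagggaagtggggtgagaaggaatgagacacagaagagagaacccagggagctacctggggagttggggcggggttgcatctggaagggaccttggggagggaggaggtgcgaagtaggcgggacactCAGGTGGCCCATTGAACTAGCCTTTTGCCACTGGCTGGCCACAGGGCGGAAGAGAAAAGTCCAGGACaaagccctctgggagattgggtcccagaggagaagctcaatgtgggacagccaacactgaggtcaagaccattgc

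The peaks took different places within these windows. At Itgb6 and 6720432D03Rik the capitals stand at the far upstream end, at Plekha1 they begin a little further in, at Grwd1 they fill the middle, at Gmfg they end short of the start site, and at Selenov they cross it. The parts under the peak held 2 CpG dinucleotides at Itgb6, 0 at 6720432D03Rik, 6 at Selenov, 6 at Grwd1, 0 at Plekha1 and 1 at Gmfg. The G and C content of the part under the peak was 35.9% at Plekha1 against 54.7% over its whole window, and 59.8% at Selenov against 58.3%. With a lower limit of 30 bp of overlap, 11 windows with a CS peak outside SS and SC had a median of 12 CpG and 50.3% G and C. The 1209 windows reached by the remaining CS peaks had medians of 21 CpG and 60.3%. For CC, 7 windows had medians of 17 CpG and 57.7% G and C, beside 21 CpG and 61.7% in 818 windows of remaining peaks. All 32851 RefSeq promoter windows had medians of 7 CpG and 52.7%. These windows are few and are given as a description.

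The peaks outside SS and SC were spread over gene bodies and intergenic sequence more than the remaining peaks of the same lists. Promoter classes within 1 kb of a transcription start site held 109 of 325 CS peaks, 33.5% (28.4 to 39.0%), against 84.3% (83.3 to 85.2%) of the 5913 remaining CS peaks. In CC they held 85 of 208, 40.9% (34.1 to 47.9%), against 85.0% (83.9 to 86.0%) of the 4462 remaining peaks. Gene bodies held 70 CS peaks, 21.5% (17.2 to 26.4%), against 4.19% of the remaining CS peaks, and 34 CC peaks, 16.3% (11.6 to 22.1%), against 3.97% of the remaining CC peaks. Other intergenic sequence held 100 CS peaks, 30.8% (25.8 to 36.1%), against 8.79%, and 58 CC peaks, 27.9% (21.9 to 34.5%), against 7.93%. The class between 1 and 3 kb held 12.9% of CS peaks outside SS and SC against 2.52% of the remaining ones, and 13.9% against 2.85% in CC. Subtelomeric sequence held 4 CS peaks, 1.23% (0.336 to 3.12%), against 0.237% of the remaining CS peaks, and 2 CC peaks, 0.962% (0.117 to 3.43%), against 0.247% of the remaining CC peaks. The choice of peaks bears on this comparison, because promoter classes held 63.2% of SC and 62.2% of SS peaks, and a peak that avoids both lists is thereby kept away from many promoters. For the same reason no test was made between the peaks outside SS and SC and the rest.

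**Figure D1:**
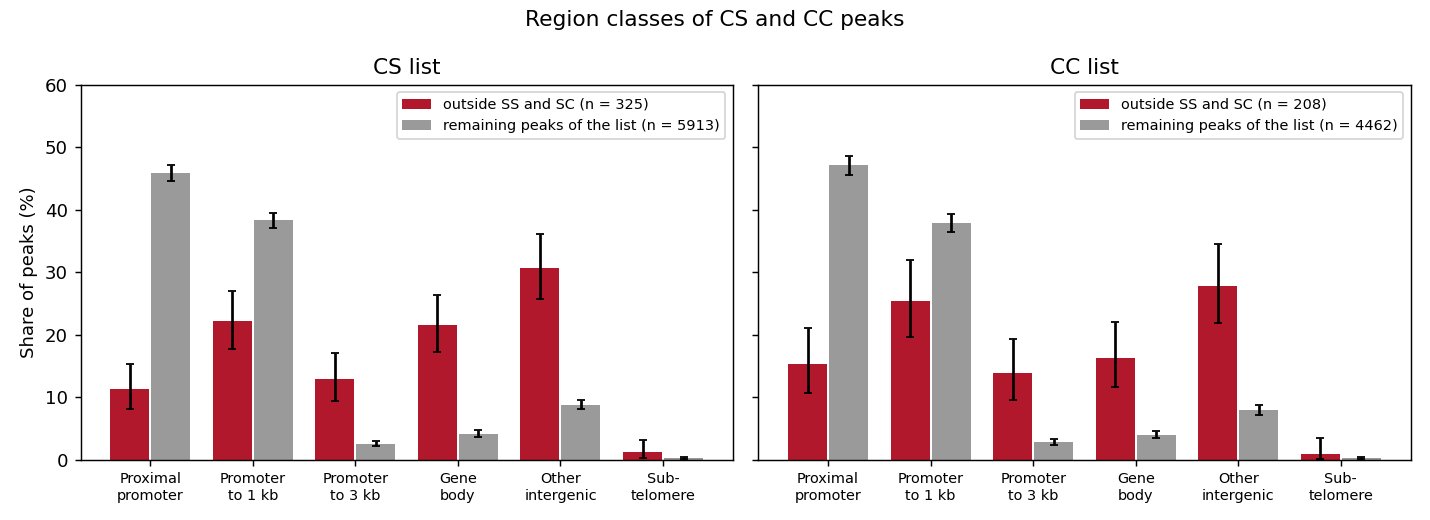
Share of CS peaks (left) and CC peaks (right) in each region class of the authors' annotation, for peaks that overlap no SS or SC peak (red) and for the remaining peaks of the same list (grey). Bars are percentages of peaks and error bars are 95% exact binomial intervals; gene bodies and intergenic sequence make up 21.5% and 30.8% of the CS peaks outside SS and SC, against 4.19% and 8.79% of the remaining CS peaks.

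The distance to the nearest SS or SC peak divided the members into promoter neighbours and distant peaks. The median distance was 5121 bp for CS (quartiles 364 and 36493 bp, up to 1013 kb) and 1484 bp for CC (321 and 18271 bp, up to 1155 kb). Within 1 kb of an SS or SC peak lay 120 CS peaks (36.9%) and 98 CC peaks (47.1%). Of these close peaks, 85 in CS (70.8%) and 65 in CC (66.3%) were in a promoter class. At 10 kb or more from any SS or SC peak lay 146 CS and 63 CC peaks, of which 122 (83.6%) and 55 (87.3%) were in gene bodies or intergenic sequence. The limit of 1 bp divided a continuum of close peaks: 11 CS members lay within 20 bp of an SS or SC peak, 2 of them touching one, with a median fold enrichment of 4.35. Another 18 CS peaks overlapped an SS or SC peak by at most 20 bp and were left out, with a median of 4.39. In CC, 11 members lay just inside the limit with a median of 4.71, and 7 peaks just outside it with a median of 5.02. Among the remaining peaks, 97.3% of CS and 97.9% of CC peaks lay wholly within an SS or SC peak. The most distant members were intergenic on chromosome 12, a CC peak at chr12:93577082-93577154 (fold enrichment 8.19) and a CS peak at chr12:93719019-93719088 (5.02).

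Fold enrichment is the authors' ratio of signal over background at a peak, and is compared here only within a list. Its median was 4.68 both for the CS peaks outside SS and SC (95% interval 4.63 to 4.98) and for the remaining CS peaks (4.68 to 4.68). In CC it was 5.18 (4.92 to 5.50) for the peaks outside SS and SC and 4.80 (4.77 to 4.83) for the remaining peaks. The upper part of the distribution differed more. A fold enrichment of at least 7 was reached by 57 CS peaks outside SS and SC, 17.5% (13.6 to 22.1%), against 2.45% (2.07 to 2.88%) of the remaining CS peaks. In CC the same limit was reached by 54, 26.0% (20.1 to 32.5%), against 3.47% (2.96 to 4.05%). The single strongest peaks of both lists were nevertheless among the remaining ones: the highest fold enrichment was 13.0 outside SS and SC against 35.5 in the remaining CS peaks, and 14.9 against 36.7 in CC.

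The q-value, the false discovery rate that the authors list for each peak, had a median of 0.000214 for CS peaks outside SS and SC against 0.000708 for the remaining CS peaks. The CC medians were 1.64e-05 and 0.000496. The 69 CS members in clusters of at least 3 loci chained within 50 kb carried the lower CS median: the other 256 had a median of 0.00103, above that of the remaining CS peaks, while the 146 CC members outside clusters had 0.000133. A q-value of at most 1e-05 was held by 127 CS members, 39.1% (33.7 to 44.6%), where 16.3% of all CS peaks pass this limit and 15.0% of the remaining ones. In CC it was held by 103, 49.5% (42.5 to 56.5%), where 18.1% of all CC peaks and 16.7% of the remaining ones pass. Median fold enrichments were higher for peaks farther from SS and SC. The CS medians were 4.35 for peaks under 200 bp away, 4.54 from 200 bp to 1 kb, 4.92 from 1 to 10 kb, 5.02 from 10 to 100 kb and 5.69 beyond. The CC medians over the same bands were 4.66, 4.55, 5.36, 7.25 and 7.25.

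**Figure D2:**
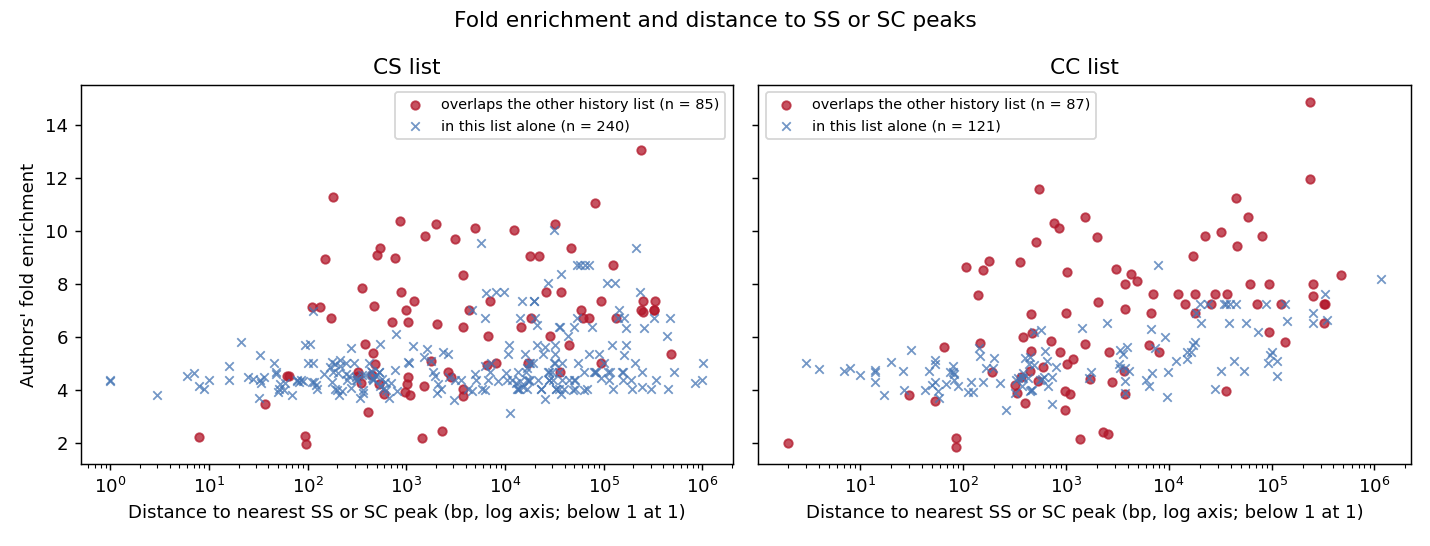
Authors' fold enrichment (vertical axis, a ratio) against the distance to the nearest SS or SC peak (horizontal axis, bp, log scale, with touching peaks drawn at 1) for CS (left) and CC peaks (right) outside SS and SC. Each point is 1 peak; red circles (85 CS, 87 CC) overlap a peak of the other cocaine history list and blue crosses (240 CS, 121 CC) do not, and the highest points are mostly red circles.

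The peaks were also narrow. Their median width was 82 bp in CS (quartiles 71 and 106 bp, range 69 to 347 bp) against 111 bp for the remaining CS peaks, and 78 bp in CC (68.8 and 99.3 bp, range 67 to 168 bp) against 108 bp for the remaining CC peaks. The shortest width in a list, 69 bp in CS and 67 bp in CC, was held by 68 CS peaks outside SS and SC (20.9%) against 11.6% of the remaining CS peaks. In CC 43 such peaks (20.7%) had it, against 11.6%. A narrow peak has less chance of touching another peak, so the rule bears on width too. The widest were a CS peak near Eif4enif1 at chr11:3199581-3199928 (347 bp, fold enrichment 2.44), 1 at the pericentromeric transcript Gm11168 at chr9:3007183-3007458 (275 bp, 7.36) and 1 at the start of the zinc finger gene Zfp639 (255 bp, 4.42). In CC the widest was at AC166344.1 on chromosome 14 (168 bp, 6.16). Peaks often repeated the same fold enrichment: 30 CS members had the same value of 4.35, and 53.2% of CS and 32.2% of CC members fell on whole multiples of a common step (0.335 in CS, 0.363 in CC, tolerance 0.0005), against 39.4% and 25.8% of remaining peaks.

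**Figure D3:**
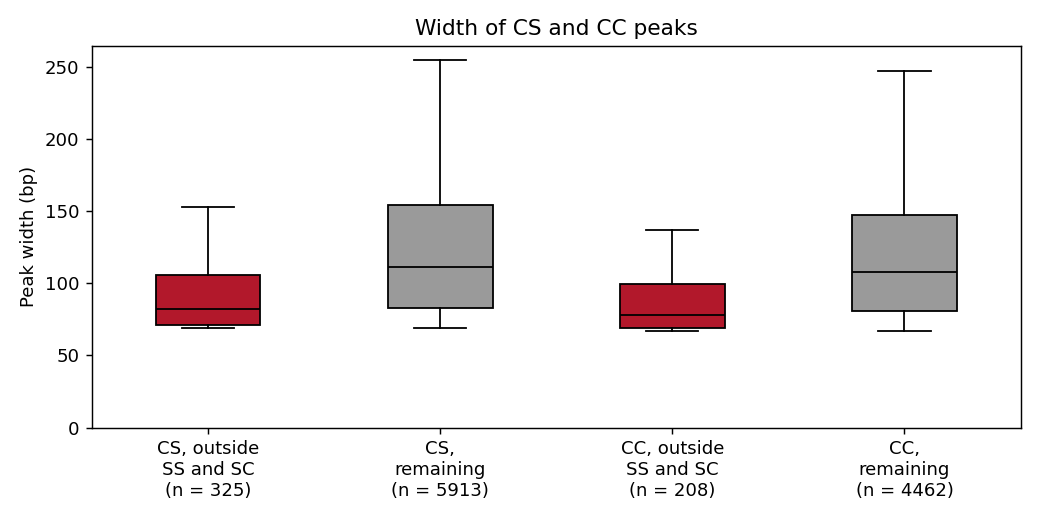
Width in bp of CS and CC peaks that overlap no SS or SC peak (red) and of the remaining peaks of the same list (grey). Boxes span the quartiles, the line is the median (82 against 111 bp in CS, 78 against 108 bp in CC) and whiskers run to the 5th and 95th percentiles.

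The comparison of CS with CC asks how many of these places recur when a cocaine history ends in saline or in cocaine; overlap between CS and CC was not used to choose them. Of the 325 CS peaks, 85 overlapped a CC peak, 26.2% (21.5 to 31.3%), where 24% of all CS peaks and 23.9% (22.8 to 24.97%) of the remaining CS peaks did. Of the 208 CC peaks, 87 overlapped a CS peak, 41.8% (35.0 to 48.8%), where 31.9% of all CC peaks and 31.4% (30.1 to 32.8%) of the remaining CC peaks did. The CS share was thus close to that of the list. The CC share was higher than its list, but neighbouring peaks are not independent, and the intervals do not allow for this. Among the 175 CC members outside the 2 largest clusters described below, it was 32% (25.2 to 39.5%). The overlapping partner was itself outside SS and SC for 84 of the 85 CS peaks and 86 of the 87 CC peaks. Pairs were counted only where the peaks overlapped, which by itself keeps their middles close. Over 84 such pairs the median overlap was 73 bp, the median offset between peak middles was 5 bp, and in 67 pairs it was within 20 bp.

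Recurring peaks were stronger in the median. CS peaks that overlapped a CC peak had a median fold enrichment of 6.69, against 4.60 for those that did not. CC peaks that overlapped a CS peak had a median of 6.89, against 4.83. Among members with a q-value of at most 1e-05, 52.8% (43.7 to 61.7%) of CS peaks recurred in CC, against 43.1% (39.8 to 46.4%) of remaining CS peaks at the same limit. The CC share recurring in CS was 68.0% (58.0 to 76.8%), against 52.6% (48.9 to 56.2%) of remaining CC peaks. The 2 sets were not of equal strength under this q-value limit. Median fold enrichments were 6.69 for CS members and 5.72 for remaining CS peaks, and 7.25 and 5.97 in CC. Above that q-value the order turned: 9.09% (5.48 to 14.0%) of CS members recurred, against 20.5% (19.3 to 21.6%) of remaining CS peaks, and 16.2% (9.72 to 24.7%) of CC members against 27.2% (25.8 to 28.7%). The recurring share also varied with distance from SS and SC. In CS it was 18.3%, 33.3%, 42.4%, 18.8% and 22.2% over the 5 bands from under 200 bp to over 100 kb. In CC it was 25%, 42%, 53.2%, 44.2% and 50%, with the widest interval (27.2 to 72.8%) for the 20 peaks beyond 100 kb.

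**Figure D4:**
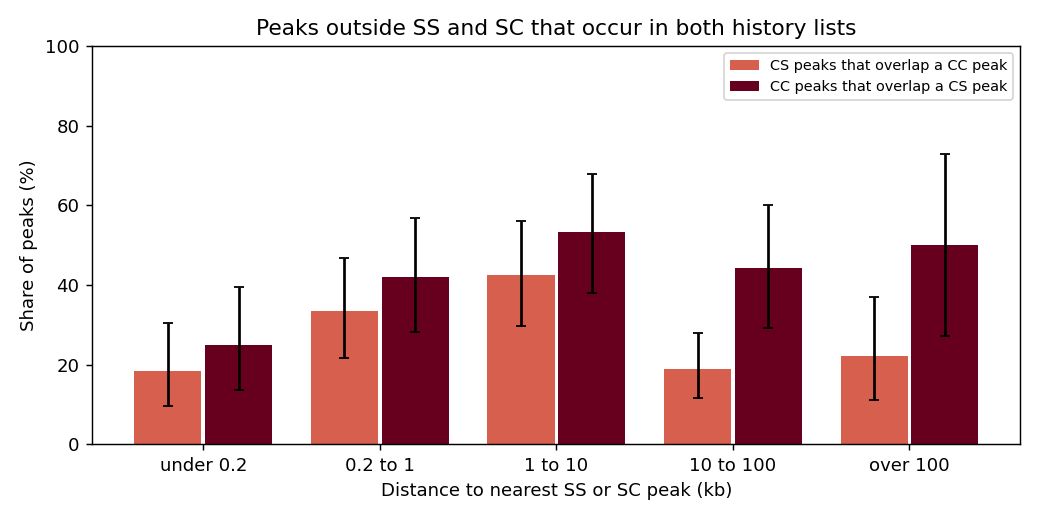
Share of CS peaks that overlap a CC peak (light) and of CC peaks that overlap a CS peak (dark), among peaks outside SS and SC, by distance to the nearest SS or SC peak in kb. Error bars are 95% exact binomial intervals. The highest shares, 42.4% in CS and 53.2% in CC, are those of peaks 1 to 10 kb away, where most recurring CS peaks lie in clusters.

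Much of the recurrence lay in a few dense groups of peaks. Chaining loci that lie within 50 kb of each other gave 16 clusters of at least 3 loci, with 88 of the 447 loci and 42 of the 84 loci held by both lists. In clusters 43 of 69 CS peaks, 62.3% (49.8 to 73.7%), recurred in CC, and 44 of 62 CC peaks, 71.0% (58.1 to 81.8%), recurred in CS. Outside clusters these were 42 of 256 CS peaks, 16.4% (12.1 to 21.5%), and 43 of 146 CC peaks, 29.5% (22.2 to 37.6%). The CS share outside clusters lies below the background of 24%, and the CC share is near its background of 31.9%. Outside clusters 73 CS members had a q-value of at most 1e-05, and 45.2% (33.5 to 57.3%) of them recurred, while 4.92% (2.27 to 9.13%) of the 183 weaker ones did. For CC these shares were 60.3% of 58 and 9.09% of 88. In clusters the shares at both strengths were closer, with 63.0% (48.7 to 75.7%) of 54 stronger and 60% (32.3 to 83.7%) of 15 weaker CS members, and 77.8% (62.9 to 88.8%) of 45 and 52.9% (27.8 to 77.0%) of 17 CC members.

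The cluster with the most peaks and loci spans chr11:3127584-3199928, over Sfi1, which encodes a centrosomal protein, and the pseudogene Pisd-ps1. It held 17 CS and 18 CC members at 19 loci, of which 16 and 17 recurred in the other list. Their median fold enrichment was 7.01 in CS and 7.44 in CC, and the strongest were 11.3 at chr11:3173044-3173139 in CS and 10.3 at chr11:3165335-3165439 in CC. SS and SC were not empty here: counting all peaks, the stretch held 45 in CS, 49 in CC, 11 in SC and 18 in SS, where CS peaks covered 5550 bp and CC peaks 5834 bp, beside 5907 bp under SC peaks and 10636 bp under SS peaks. The second cluster, chr9:3002941-3037428, lies at the centromeric end of chromosome 9 over the unnamed transcripts Gm10715, Gm10717 to Gm10720, Gm11168 and Gm17535. It held 16 CS members (median fold enrichment 4.39) and 15 CC members (4.72) at 17 loci, and 14 of each recurred. All peaks there numbered 32 in CS, 32 in CC, 12 in SC and 12 in SS. Without these 2 clusters, 18.8% of 292 CS members and 32% of 175 CC members recurred.

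**Figure D5:**
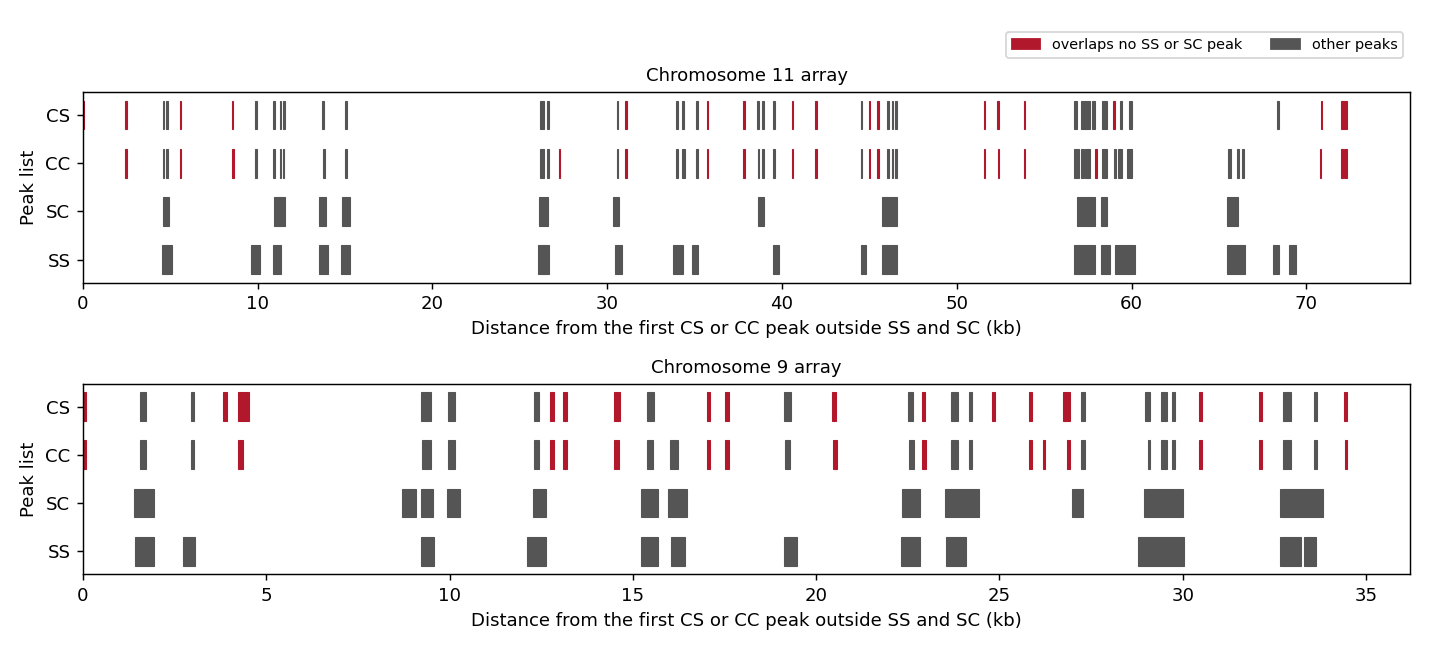
Position of every peak of the CS, CC, SC and SS lists in the clusters on chromosome 11 (top) and chromosome 9 (bottom), in kb from the first CS or CC peak outside SS and SC; bar length is peak width. Red bars overlap no SS or SC peak and grey bars are all other peaks; the CS and CC rows carry nearly the same pattern of narrow bars (45 and 49 on chromosome 11), while SC and SS carry fewer and wider ones (11 and 18).

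Several smaller clusters held no SS or SC peak between their outermost members. On chromosome 7, chr7:59767459-59769998 lies within Snhg14, the long noncoding host transcript of small nucleolar RNAs in the imprinted Prader-Willi region, and was assigned to Gm23446 and Gm25210. It held the strongest peak of either set, with a fold enrichment of 13.0 in CS and 14.9 in CC at Gm23446. The second locus there, at Gm25210, had 7.03 in CS and 11.97 in CC, and another was in CS alone (7.70). Clusters without SS or SC peaks in their span also lay at the Sp140 and Sp110 genes of nuclear body proteins (chr1:85607941-85616179), at A530040E14Rik (chr1:85075249-85113140), at Gm5373 (chr8:71803295-71853576) and at the cytochrome P450 pseudogene Cyp2c53-ps (chr19:39257499-39264121). Sp140 and Gm5373 themselves had SS peaks outside these spans. The nearest lay 6737 bp from a CC member at Sp140 and 3749 bp from a CS member at Gm5373. On chromosome 17, 3 CS peaks (fold enrichments 5.72, 6.09 and 6.97) formed a cluster with no CC or SS peak but with 2 SC peaks. The gene the authors assigned there was Tcte2, and the only RefSeq gene overlapped was 2700054A10Rik.

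Pseudogenes and unnamed transcripts were frequent among the members. A pseudogene annotated in RefSeq was overlapped by 21 CS members, 6.46% (4.04 to 9.71%), where 1.44% of all CS peaks and 1.17% of remaining ones overlapped one. In CC 13 members did, 6.25% (3.37 to 10.5%), where 1.37% of all and 1.14% of remaining peaks did. Protein-coding genes were the assigned type for 49.8% of CS members against 81.4% of remaining CS peaks, and for 53.8% of CC members against 82.7%. These shares are of all peaks, including intergenic and subtelomeric ones without an assigned gene. Such peaks were more frequent among the members, which accounts for part of the difference. Names without a known function, such as those starting Gm or ending Rik, were assigned to 23.1% of CS members against 12% of the remaining peaks, and to 23.6% of CC members against 11.3%. A pair of loci on chromosome 17 assigned to Gm42418 overlaps the ribosomal RNA pseudogene Rn18s-rs5 and was in both lists, with low fold enrichments of 1.94 and 2.26 in CS and 1.83 and 2.16 in CC. Reads from copies of nearly identical sequence can be placed at more than 1 site, so peaks in such repeats are uncertain in position; the handling of such reads is not stated in the labels, and its part in these results was not tested.

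Single loci outside clusters also recurred, several of them inside genes. Hira, which encodes a chaperone of the histone variant H3.3, carried a gene body peak with a fold enrichment of 11.04 in CS (chr16:18958431-18958537) and 9.79 in CC, with the middle of the CS peak 81418 bp from the start site the authors assigned. Efna5, an ephrin ligand of axon guidance, had 9.37 in CS (chr17:62737544-62737624) and 9.43 in CC. Pcnx2 had 9.03 in CS and 9.79 in CC. Dock2, an exchange factor for Rac in immune cells, had 5.69 in CS and 11.2 in CC. Cd44, the hyaluronan receptor, had 6.69 in CS and 7.25 in CC. The small nucleolar RNA gene Snord37, which lies in the elongation factor gene Eef2, had 9.71 in CS and 8.57 in CC, and its CS peak lay 3091 bp from the nearest SC peak. Intergenic and subtelomeric loci were as strong: chr1:89411523-89411606 had 10.3 in CS and 9.94 in CC, and chr2:181930228-181930304 had 10.4 in CS and 10.1 in CC, the second of them 858 bp from an SS peak. The fold enrichments of CS and CC are not on a common scale and are set side by side only to show the rank of each locus as high within its own list.

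Promoter members mostly lay close to an SS or SC peak. In CS, median fold enrichments in the proximal and 1 kb promoter classes were 4.35 and 4.52, against 4.68 in both for remaining peaks. In CC they were 4.46 and 4.71, against 4.77 and 4.79. A q-value of at most 1e-05 was held by 16.2% and 29.2% of these CS members, against 13.3% and 13.5%. The CC shares were 31.25% and 34.0%, against 13.5% and 15.4%. Promoter members numbered 109 in CS, assigned to 99 genes, and 85 in CC, assigned to 76 genes. Of them 85 in CS (78.0%) and 65 in CC (76.5%) lay within 1 kb of an SS or SC peak, and the assigned gene itself had a promoter peak in SS or SC for 71 and 63. The median distance between peak middle and start site was 407 bp in CS against 229 bp for remaining CS promoter peaks, and 366 bp in CC against 228 bp. A middle within 100 bp of the start site was found for 11.9% (6.51 to 19.5%) of CS promoter members against 20.3% (19.2 to 21.4%) of remaining CS promoter peaks, and for 15.3% (8.40 to 24.7%) of CC promoter members against 21.1% (19.8 to 22.4%). Recurrence in the other list was 26.6% (18.6 to 35.9%) for CS promoter members against 22.9% for the remaining CS promoter peaks, and 34.1% (24.2 to 45.2%) for CC promoter members against 30.0%. Clusters held 21 of the CS promoter members but most of the recurring ones. Among the 88 CS promoter members outside clusters the recurring share was therefore below that of the remaining CS promoter peaks.

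Promoter members described by gene were picked for their known roles after the values were seen. Recurring at overlapping positions in both lists were Fkbp14, a prolyl isomerase of the endoplasmic reticulum (5.08 in CS, 4.41 in CC), the transcriptional corepressor Ctbp2 (4.68 in CS, 4.19 in CC) and Mnt, a repressor that pairs with Max (4.53 in CS, 4.49 in CC). Lin54, a DNA-binding subunit of the DREAM cell cycle complex, had 4.15 in CS and 5.71 in CC. Sec24b, a cargo adaptor of COPII vesicles, had 1 peak in CS (4.50) that overlapped 2 in CC (3.81 and 4.66). At other genes the lists differed in position. Iffo2, Pigl and Tsc22d2 each had a promoter member in CS and another in CC that did not overlap. At Grwd1 the CS member ended 110 bp before the CC peak printed above began.

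Of the promoter members in CS alone, Srf, a transcription factor for activity-regulated and cytoskeletal genes, had a fold enrichment of 4.02. The growth kinase Mtor had 5.58 and Cdk9, the kinase that releases paused RNA polymerase, had 5.69. Chrna7, a nicotinic acetylcholine receptor subunit, had 4.25, and Trpc1, a cation channel subunit, had 4.35. Pwwp2a, which encodes a protein that binds H2A.Z nucleosomes, had 4.30. All of these lay at most 608 bp from an SS or SC peak. In CC alone, Set, a histone chaperone and phosphatase inhibitor, had 5.52, Elavl2, a neuronal RNA-binding protein, had 4.82, and the corepressor gene Rcor3 had 4.83. Tead1, a transcription factor of the Hippo pathway, had 5.59 and Ikbkb, a kinase of the NF-kappaB pathway, had 4.18. Of these, Set lay 3337 bp and Elavl2 3726 bp from the nearest SS or SC peak, and the other genes at most 142 bp. Promoter members far from SS and SC were few: 11 CS and 5 CC members in a promoter class lay 10 kb or more away, Itgb6 (4.35) and Mcmbp (8.03) among them in CS.

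Genes of striatal neurons and of cocaine signalling were rare among the members, as in the whole lists. Of 395 genes in 18 lists, 2 were assigned a CS member, 0.615% of members where 0.994% of all CS peaks were assigned such a gene. In CC 4 members were, 1.92% where 1.31% of all CC peaks were. The shares are near those of the whole lists. In CS they were Grm8, a presynaptic glutamate receptor (gene body, 4.35), and Sos1, a Ras exchange factor (4.49, in the class between 1 and 3 kb). In CC they were the adaptor Gab1 (4.67), Nrxn3, a presynaptic adhesion protein (gene body, 7.25), Arid1a, a subunit of BAF remodelling complexes (4.66), and Suv39h2, a histone H3 lysine methyltransferase (4.22). No member was assigned to the listed markers of D1 or D2 medium spiny neurons, interneurons, glia or vessels, or to listed activity-induced genes. The same held for the lists of dopamine and cAMP signalling, GABA signalling, presynaptic release, voltage-gated channels, and H2A.Z genes and exchange complexes. The last list did not include Ino80d, named for the INO80 complex, to which a CS member in the gene body class was assigned (3.83). The remaining peaks held few genes of these lists either. Each list had at most 7 remaining peaks in CS and in CC, apart from the H2A.Z list with 14 remaining CS peaks and 10 remaining CC peaks. A count of 0 allows a share of up to 0.923% in CS and 1.44% in CC when 3 peaks of the total are taken as its limit, and up to 1.13% and 1.76% by the exact interval, so no shortage among the members is detectable. Ribosomal protein genes held 0 CS and 0 CC members, against 64 remaining CS peaks (1.08%) and 39 remaining CC peaks (0.874%), and these shares of remaining peaks are within the exact limits of a 0 count. Zinc finger genes were the assigned gene of 5 CS members (1.54%) against 3.81% of remaining CS peaks, and of 4 CC members (1.92%) against 3.88%. This difference rested on the naming: counting also peaks that overlap a zinc finger gene in RefSeq, there were 13 CS members, 4% (2.15 to 6.74%), against 4.16% of remaining CS peaks, and 12 CC members, 5.77% (3.02 to 9.86%), against 4.24%. Of the 16 clusters, 3 on chromosome 4 overlap Zfp978, Zfp982 or Zfp992. Peak lists hold no expression values, so the dissected tissue was not checked by markers.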

How the data were processed

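The data analysed were 4 annotated peak lists, 1 per condition, each naming 3 samples; the labels do not say if peak calling used pooled reads or each sample. The submitters' processing notes name the mm10 build, cutadapt, HISAT, SAMtools and MACS2, without versions or roles. The fold enrichment of a peak is a ratio deposited by the authors, and the q-value column, per the file headers, was deposited as a plain number and not as a logarithm; region classes and assigned genes are also the authors'. No column held values of other samples (0 columns).

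Peaks of CS and CC on chromosomes 1 to 19 with no overlap of at least 1 bp with an SS or SC peak were found with bedtools 2.31.1 and Python 3.11.15. Starts were read as half-open intervals, since the lists do not state where they count from, and overlap functions were tested on simulated intervals. Shares carry 95% exact binomial (Clopper-Pearson) intervals and medians order-statistic intervals, both for the counting of peaks only. With 1 list per condition there is no test and no p-value.

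Loci in both lists with the 15 highest CS folds, the 10 strongest and 5 widest members per list, the 5 most distant and those in a fixed gene list could be named; other genes were named after their values were seen, and several members meeting the rule are given as counts. The members and gene lists were chosen with earlier results of these data known. Distance bands, the cluster definition, the q-value limit of 1e-05, pseudogene overlap and fold steps were chosen after the data were seen. Of 253 member gene names, 209 (82.6%) matched RefSeq.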

Additional observations from a re-analysis of the deposited data

How the results depend on the processing

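Of 66 alternative values, 39 stayed near those reported and 27 moved beyond the counting interval or 1.5 times the count. The number of members moved to 205 CS and 110 CC peaks when an SS or SC peak within 1000 bp also removed a peak, to 756 and 491 with SC alone as the reference, to 127 and 103 at a q-value of at most 1e-05, and to 3814 and 2744 when SS and SC were shortened to the strongest peaks, as many as CS holds. The recurring share was 51.2% in CS and 63.1% in CC when both peaks had to reach a q-value of 1e-05. With no SS or SC peak within 1000 bp, promoter shares were 11.7% (CS) and 18.2% (CC), intergenic 42.9% and 42.7%, gene body 29.8% and 26.4%, the median q-value 4.24e-05 and 1.34e-08, and the median fold enrichment 5.02 and 6.53. Of the alternatives added after seeing the data, counting starts from 1 gave 323 CS and 208 CC members. The others left out clusters: recurrence was then 16.4% and 29.5% (18.3% and 31.9% with clusters chained within 10 kb), the intergenic CC share 34.9%, and the median q-value 0.00103 and 0.000133. Median widths stayed within 76 to 82 bp. No paired analysis was possible because the lists hold no values per sample, and for the same reason no replicate could be left out.

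The main limits are the missing replicate error, unknown sequencing depth, and the difference in length and strength between the CS and CC lists and the SC and SS lists. That difference cannot be told apart from the conditions.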

Other observations

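Outside chromosomes 1 to 19, other CS and CC peaks also overlapped no SS or SC peak, and these belong to none of the counts above. On the X chromosome there were 9 of 29 CS peaks and 5 of 17 CC peaks, and on the Y chromosome 6 of 13 CS and 3 of 8 CC peaks. On mitochondrial DNA there were 4 of 14 in both CS and CC. On sequences not placed on a chromosome there were 55 of 123 CS peaks and 51 of 118 CC peaks, and 34 and 32 of these recurred in the other cocaine history list.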
